A study of Mus musculus with 18 samples.

Results

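Collagen genes were followed in RNA-seq of whole mouse liver. They were chosen by name alone, as every gene whose symbol reads Col, a type number, the letter a and a chain number, which gave 44 of the 33235 genes in the tables. Control mice were labelled wild type (WT) and received GalNAc-conASO, a control antisense oligonucleotide. Treated mice were labelled MDM2 knockdown and received GalNAc-Mdm2ASO, an antisense oligonucleotide against Mdm2, whose protein tags the tumour suppressor p53 for breakdown by the proteasome. The GalNAc sugar on both oligonucleotides is bound by a receptor of hepatocytes. Each agent was given on each of the HFHC and CDAHFD diets, named here as the labels name them; age, sex, dose and duration are not given in the sources used here. On HFHC there were 4 control samples and 4 treated samples, and on CDAHFD 5 of each. The HFHC treated samples numbered 6 and 7 held identical values for all 33235 genes, while any other pair of replicates differed at 18001 genes or more, so this pair was counted once and that group has n = 3. The 17 distinct libraries held 17770748 to 18798144 reads assigned to genes on HFHC and 22376178 to 31453055 on CDAHFD. Nothing in the labels states that replicates are separate animals, so the p-values measure only the spread between these samples. Mdm2 itself was at 907 to 963 normalized counts in HFHC controls and 304 to 420 after the Mdm2 oligonucleotide, and at 1443 to 1650 against 564 to 861 on CDAHFD.

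Collagens are triple helices of 3 chains that give tissues their tensile scaffold. The fibrillar collagens are types I, II, III, V, XI, XXIV and XXVII. Among them, types I and III form cross-striated fibres that accumulate in a scarred liver. Type IV collagen forms the sheet-like network of basement membranes, and types VII, XV and XVIII lie in the zone next to it. Type VI forms beaded filaments, the fibril-associated collagens (FACIT) decorate the surface of fibrils, type VIII and type X form short-chain networks, and types XIII, XVII, XXIII and XXV span the cell membrane. In liver, stellate cells and portal fibroblasts are the main makers of fibrillar collagen, hepatocytes make type XVIII, and endothelial cells and bile duct cells add basement membrane chains. In bulk tissue, fewer cells of a type and less RNA per cell cannot be told apart.

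By class, the 44 genes were 11 fibrillar, 6 of type IV, 3 of the basement membrane zone, 6 of type VI, 9 FACIT, 3 short-chain, 4 transmembrane and 2 others (Col26a1 and Col28a1). A gene was tested where at least 3 libraries (HFHC) or 5 libraries (CDAHFD) held a normalized count of 1 or more. On each diet 36 of the 44 passed, and 35 passed on both. Col19a1 and Col26a1 had no read in any of the 17 libraries; Col2a1, Col11a1, Col6a4, Col9a1 and Col10a1 had too few reads for a test on either diet. Col28a1 was tested on CDAHFD only, and Col17a1 on HFHC only. No read of a gene in a library allows up to 3 reads, and 32 collagen genes were above 0 in every library.

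Type IV chains are encoded in head-to-head pairs, so their start sites are shown here because the results below turn on how partner chains moved. The genes Col4a1 and Col4a2 are read in opposite directions from start sites so close that their first exons share 22 bases of chromosome 8. The genes Col4a6 and Col4a5 lie on chromosome X, with 1342 bases between their start sites. Letters in capitals mark a GC box (GGGCGG on either strand) or a CCAAT box (CCAAT on either strand). The sequences are from RefSeq on GRCm38.p6; the count tables were made on GRCm39, so these coordinates were used for no count.
Bases shared by the first exons of Col4a1 and Col4a2, chr8:11312805-11312826, plus strand: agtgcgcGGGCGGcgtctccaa
Col4a6, the 250 bases before the start, chrX:141474077-141474326, minus strand: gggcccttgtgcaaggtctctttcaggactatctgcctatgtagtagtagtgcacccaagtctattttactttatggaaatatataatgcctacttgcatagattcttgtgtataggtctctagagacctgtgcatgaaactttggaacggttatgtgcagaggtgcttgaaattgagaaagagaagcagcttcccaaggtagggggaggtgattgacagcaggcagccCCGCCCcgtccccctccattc
Col4a5, the 250 bases before the start, chrX:141475169-141475418, plus strand: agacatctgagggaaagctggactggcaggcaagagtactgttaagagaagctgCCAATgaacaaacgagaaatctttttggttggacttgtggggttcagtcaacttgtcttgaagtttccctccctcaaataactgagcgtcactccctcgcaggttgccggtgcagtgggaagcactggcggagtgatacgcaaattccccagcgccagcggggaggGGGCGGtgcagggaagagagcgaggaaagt

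RefSeq promoter entries were matched for 35 of the 44 collagen genes, as 38 windows of 250 bases before a start. A GC box lay in 57.9% of these windows, against 32.7% of 32851 windows of all genes. A CCAAT box lay in 34.2% against 33.8%, and a TATA box (TATAAA on either strand) in 13.2% against 12.4%. A p53 half-site (RRRCWWGYYY, where R is A or G, W is A or T and Y is C or T) lay in 7.89% against 7.13%. A match is a description of letters only.

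Type XVIII dominated the collagen transcripts of these livers. Per kb of annotated exon, Col18a1, whose protein carries endostatin, had a mean of 2672 ± 251 normalized counts (SD, n = 4) in HFHC controls. The next gene in that group was Col5a3, a minor fibrillar chain, at 390 ± 39.7 per kb, followed by Col3a1, the type III chain, at 233 ± 106. Col4a1 stood at 199 ± 36.8, Col14a1, a FACIT chain of mature fibrils, at 175 ± 26.1 and Col1a1, the main type I chain, at 165 ± 78.9. From Col3a1 to Col1a1 neighbouring means lay within 1 SD of each other. Col18a1 and Col5a3 also headed the CDAHFD controls, at 3550 ± 576 and 308 ± 57.8 per kb (SD, n = 5), and Col18a1 was first in all 4 groups. After the Mdm2 oligonucleotide on HFHC the order below it differed: Col14a1 was second at 339 ± 19.7 per kb (SD, n = 3), ahead of Col5a3 at 238 ± 24.7. All collagen genes together took 0.134% to 0.200% of the reads of a library.

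**Figure D1:**
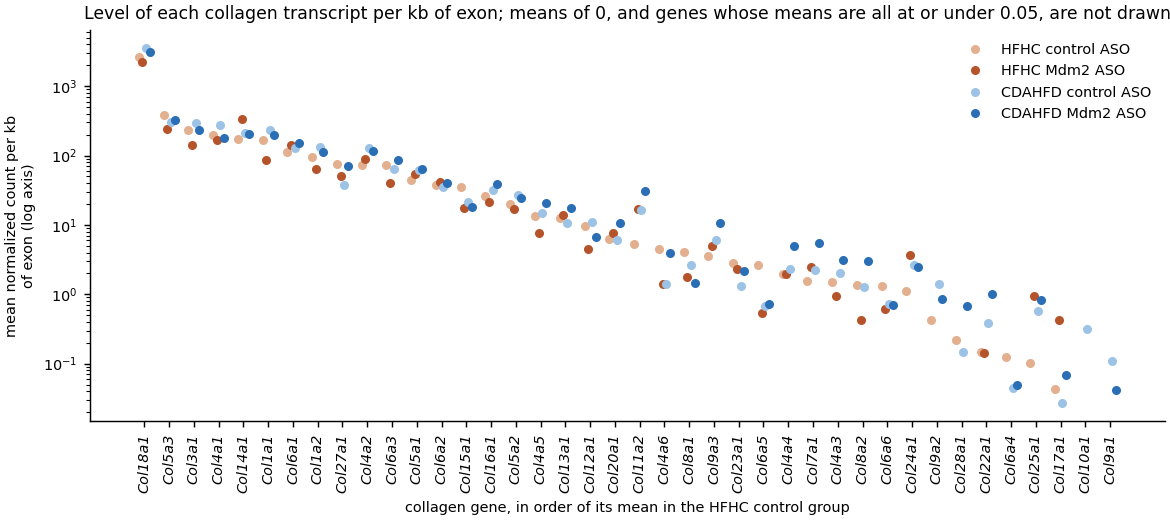
Mean normalized count per kb of exon (log axis) for 40 collagen genes in the 4 groups, ordered by the HFHC control mean; the diets were normalized separately. Col18a1 sits above every other collagen gene in each group, at 2253 to 3550 per kb.

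On HFHC, 12 of the 36 tested collagen genes passed an adjusted p of 0.05, which is 33.3% against 30.6% of all 17441 genes tested. Among these, 5 were higher after the Mdm2 oligonucleotide (background 16.8% of all genes) and 7 were lower (background 13.8%). The higher genes were Col11a2, Col24a1, Col14a1, Col17a1 and Col25a1, and the lower genes were Col5a3, Col27a1, Col4a6, Col15a1, Col6a5, Col12a1 and Col8a1. Col17a1 passed the filter only through its treated libraries, so its call carries little weight. On CDAHFD, 7 of 36 passed, which is 19.4% against 13.0% of 16803 genes. There 5 were higher (background 6.12%), namely Col27a1, Col11a2, Col4a6, Col7a1 and Col4a4, and 2 were lower (background 6.86%), namely Col4a1 and Col12a1. Leaving out 1 library at a time gave 10 to 13 collagen calls on HFHC and 4 to 8 on CDAHFD, with 4 in the fit without CDAHFD control 2. Over all genes these fits gave 3684 to 5021 calls on HFHC and 1232 to 2283 on CDAHFD, with 1232 in that same fit. Of 15 collagen genes called on at least 1 diet, 4 were called on both. The matching share over all genes is not given here, so nothing is read from this count. Col11a2 was higher and Col12a1 lower on both diets, while Col27a1 and Col4a6 were lower on HFHC and higher on CDAHFD. The tests are limma on log2(normalized count + 0.5), with Benjamini-Hochberg adjustment over all genes tested; fold changes are on that scale, which understates changes of low genes.

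**Figure D2:**
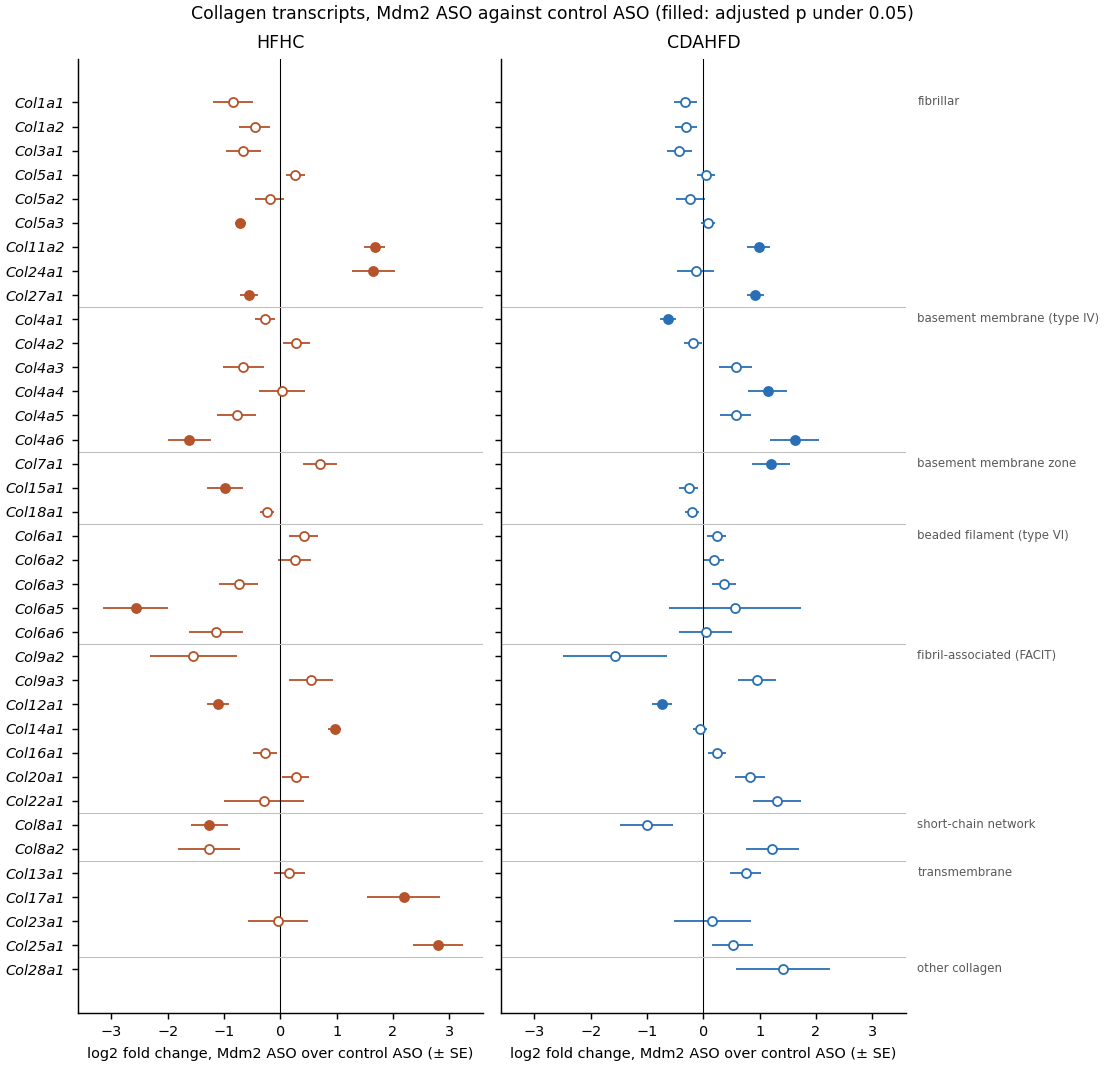
Log2 fold change of Mdm2 oligonucleotide over control ± SE for the 37 collagen genes tested on either diet, by class, with HFHC on the left and CDAHFD on the right. Filled points passed an adjusted p of 0.05: 12 on HFHC and 7 on CDAHFD, and Col4a6 and Col27a1 are filled on opposite sides of 0.

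The abundant fibrillar chains of scar tissue did not pass the test on either diet. Col1a1, the alpha1 chain of type I collagen, was at 1754, 531, 882 and 1177 normalized counts in HFHC controls 1, 2, 4 and 5, and at 380, 699 and 642 in the treated libraries 6-7, 9 and 10. The treated values reached into the range of the controls through control 2, the lowest control. The log2 fold change was -0.84 ± 0.36 (SE; limma adjusted p = 0.11), and without control 2 it was -1.14 with a limma adjusted p of 0.019. Leaving out 1 library at a time gave -1.14 to -0.56, and Col1a1 was called in no other of these fits. Col1a2, its partner chain, was at 1821, 690, 889 and 1267 in controls and 648, 903 and 847 after treatment (log2 fold change -0.46 ± 0.28; limma adjusted p = 0.252). Col3a1 was at 3692, 1371, 1662 and 2404 in controls and 1060, 1749 and 1309 after treatment (-0.66 ± 0.31; limma adjusted p = 0.137). In all 3 genes control 1 was the highest control and control 2 the lowest.

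On CDAHFD the same 3 chains split the treated libraries. Col1a1 was at 1350, 1514, 1742, 1342 and 1640 in controls 1 to 5, and at 903, 1034, 824, 1867 and 1776 in treated libraries 6 to 10. Treated libraries 6, 7 and 8 lay below every control, while 9 and 10 lay above every control. Col1a2 repeated the gap between libraries 6 to 8 and libraries 9 and 10, at 1043, 1262, 939, 1873 and 1919 in that order, against 1409, 1697, 2023, 1424 and 1859 in controls. Col3a1 was at 1502, 1881, 1492, 3135 and 3460 in treated libraries 6 to 10, against 2425, 2846, 3567, 2490 and 3294 in controls. The log2 fold changes were -0.32 ± 0.20 for Col1a1, -0.31 ± 0.19 for Col1a2 and -0.43 ± 0.22 for Col3a1, with limma adjusted p of 0.323, 0.309 and 0.219. The sum over portal fibroblast markers was also highest in treated libraries 9 and 10, at 2219 and 2598 against 1294 to 1399 in libraries 6 to 8. The quiescent stellate marker sum was also highest there, at 14359 and 13513 against 9979 to 10631, and so was the sum for activated stellate cells, at 2734 and 3783 against 1631 to 1788. Cholangiocyte markers summed to 11684 and 12909 against 7698 to 9108, sinusoidal endothelial markers to 6755 and 8039 against 5141 to 5593, and vascular endothelial markers to 790 and 1084 against 455 to 638. Kupffer and macrophage sums were 5560 and 10721 against 3873 to 5446. Hepatocyte sums were lower in libraries 9 and 10, at 1883469 and 2015601 against 2103407 to 2251001. Mesothelial, smooth muscle and red blood cell sums did not set these 2 libraries apart. The part of these cells in the collagen values was not tested.

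Among the minor fibrillar chains, 4 genes passed. Col11a2, which in cartilage helps set fibril diameter, was at 33.0, 44.9, 34.5 and 32.0 normalized counts in HFHC controls and at 107, 125 and 113 after treatment. It rose 3.18-fold (log2 1.67 ± 0.18; limma adjusted p = 1.2e-04) with no overlap of the groups. On CDAHFD the same gene was at 97.6, 64.7, 139, 160 and 107 in controls and 185, 226, 262, 206 and 197 after treatment, a rise of 1.97-fold (log2 0.98 ± 0.21; limma adjusted p = 0.00915). The groups were apart there too, and the call stood under every alternative fit tried on either diet.

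Col5a3, the rarer chain of type V collagen and the most abundant fibrillar transcript per kb, fell on HFHC. It was at 2636, 3001, 2635 and 2341 in controls and at 1789, 1614 and 1453 after treatment (0.610-fold; log2 -0.71 ± 0.10; limma adjusted p = 7.0e-04). Every treated library was below every control. Its CDAHFD values were 1853, 2014, 1944, 1895 and 2796 in controls and 1898, 2518, 2218, 1766 and 2691 after treatment (log2 0.08 ± 0.13; limma adjusted p = 0.748). The main type V chains Col5a1 and Col5a2 did not pass on either diet, with log2 fold changes between -0.23 and 0.26.

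Col27a1, a long fibrillar chain known from cartilage, moved in opposite directions on the 2 diets. On HFHC it was at 1032, 831, 945 and 1092 in controls and at 551, 865 and 593 after treatment, so treated library 9 lay within the control range (log2 -0.56 ± 0.16; limma adjusted p = 0.023). On CDAHFD the gene was at 556, 355, 548, 404 and 618 in controls and at 764, 967, 970, 1068 and 847 after treatment, with no overlap (1.89-fold; log2 0.92 ± 0.15; limma adjusted p = 0.00176). The fall on HFHC was no longer called without treated library 6-7 or 10, without control 1 or 5, or with scaling to total counts, where the limma adjusted p ranged up to 0.0885. The rise on CDAHFD was called under every alternative.

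Col24a1, another minor fibrillar chain, was low but rose on HFHC. It was at 7.23, 8.98, 5.39 and 13.0 in controls and at 34.3, 18.0 and 31.3 after treatment (3.13-fold; log2 1.65 ± 0.38; limma adjusted p = 0.00992). These values rest on 33 control reads and 87 treated reads, a depth-adjusted ratio of 3.19 with an exact 95% interval for counting error of 2.12 to 4.92. On CDAHFD controls ranged from 14.0 to 26.6 and treated libraries from 10.2 to 25.1 (log2 -0.14 ± 0.32; limma adjusted p = 0.813). Over the 9 tested fibrillar genes the median log2 fold change was -0.46 on HFHC, with 2 genes higher and 2 lower, and -0.14 on CDAHFD, where the 2 genes called were both higher. The median over all genes tested was -0.01 on HFHC and 0.00 on CDAHFD.

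**Figure D3:**
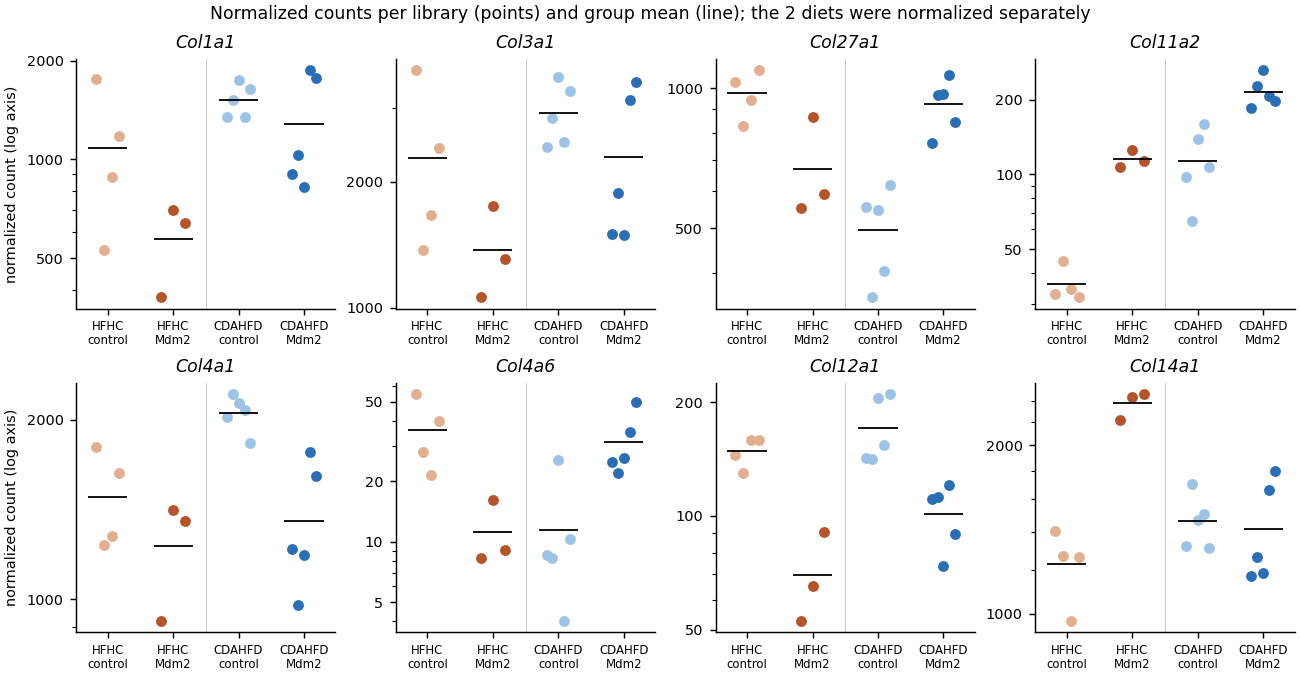
Normalized count per library (points, log axis) and group mean (line) for 8 collagen genes in the 4 groups; the diets were normalized separately. Col27a1 and Col4a6 shift in opposite directions on the diets, Col11a2 and Col12a1 in the same direction, and Col1a1 and Col3a1 spread widely within groups.

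The chains Col4a1 and Col4a2 of type IV collagen build the network of nearly all basement membranes and were the abundant members. On HFHC Col4a1 was at 1800, 1232, 1279 and 1629 in controls and at 921, 1413 and 1351 after treatment (log2 -0.28 ± 0.18; limma adjusted p = 0.262), and the groups overlapped. For CDAHFD the values were 2019, 2208, 2133, 2079 and 1830 in controls and 1217, 978, 1187, 1768 and 1609 after treatment. There Col4a1 fell to 0.644-fold (log2 -0.63 ± 0.14; limma adjusted p = 0.0088), with every treated library below every control. Col4a2 did not pass on either diet. It was at 699, 375, 376 and 510 in HFHC controls and 420, 681 and 665 after treatment, with a log2 fold change of 0.28 ± 0.24. On CDAHFD it was at 871, 942, 894, 837 and 766 in controls and 631, 597, 610, 1030 and 1029 after treatment, with a log2 fold change of -0.19 ± 0.16. Treated libraries 9 and 10 were again the high ones in Col4a2, above every control.

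Within a library the ratio of partner chains does not depend on the scaling factor. The ratio of Col4a2 to Col4a1 reads was 0.388, 0.304, 0.294 and 0.313 in HFHC controls and 0.456, 0.482 and 0.492 after treatment. The CDAHFD ratio was 0.431, 0.427, 0.419, 0.403 and 0.419 in controls and 0.519, 0.610, 0.514, 0.583 and 0.639 after treatment. The ratio was thus higher in every treated library than in every control of its diet. Means were 0.325 ± 0.0428 against 0.477 ± 0.0188 on HFHC (SD, n = 4 and 3) and 0.420 ± 0.0110 against 0.573 ± 0.0555 on CDAHFD (SD, n = 5 and 5). A two-sided exact permutation test of the mean log2 ratio gave p = 0.0571 on HFHC, the smallest value that its 35 regroupings allow, and p = 0.00794 on CDAHFD, the smallest that 252 allow. Adjusted over 16 ratios (8 chain pairs on 2 diets, chosen after the values had been seen), these exact p became 0.152 and 0.0635, so neither passed. The annotation gives Col4a1 and Col4a2 only the 22 shared exonic bases printed above, 0.295% of the exonic length of Col4a1.

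The chains Col4a5 and Col4a6, known from the basement membranes of smooth muscle and of some epithelia, were low. Col4a6 was at 54.7, 28.1, 21.6 and 40.0 in HFHC controls and at 8.33, 16.1 and 9.09 after treatment, a fall to 0.325-fold (log2 -1.62 ± 0.38; limma adjusted p = 0.0103) without overlap. Its CDAHFD values were 8.58, 8.32, 25.7, 4.03 and 10.3 in controls and 25.1, 22.0, 26.1, 35.4 and 49.8 after treatment. It rose 3.06-fold there (log2 1.62 ± 0.43; limma adjusted p = 0.0237), and control 3 lay inside the treated range. The rise was lost without treated library 9 or 10 or without control 2 or 4, with a limma adjusted p of up to 0.0603. Col4a5 was at 128, 62.9, 53.9 and 117 in HFHC controls and 51.9, 67.2 and 33.3 after treatment, which did not pass (log2 -0.78 ± 0.35; limma adjusted p = 0.125). On CDAHFD the gene was at 80.5, 59.2, 187, 81.4 and 92.5 in controls and 119, 94.2, 147, 167 and 178 after treatment (log2 0.57 ± 0.27; limma adjusted p = 0.185). The ratio of Col4a6 to Col4a5 reads was 0.342 to 0.446 in HFHC controls and 0.161 to 0.273 after treatment, and 0.0495 to 0.141 in CDAHFD controls and 0.177 to 0.280 after treatment. The groups did not overlap on either diet, and the ratio went down on HFHC and up on CDAHFD (exact permutation p = 0.0571 and 0.00794; 0.152 and 0.0635 after adjustment over the 16 ratios).

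The third pair, Col4a3 and Col4a4, makes the network of kidney glomeruli together with Col4a5. Col4a4 was at 19.3, 15.7, 44.0, 14.5 and 30.8 in CDAHFD controls and at 71.2, 31.4, 65.8, 45.9 and 48.6 after treatment, a rise of 2.20-fold (log2 1.14 ± 0.34; limma adjusted p = 0.0403). Control 3, at 44.0, overlapped the treated range. The call was lost in edgeR, without the low-value filter, with total-count scaling, and without treated library 6, 8, 9 or 10 or control 1, 2 or 4. On HFHC Col4a4 was at 11.9 to 32.0 in controls and 13.9 to 31.2 after treatment. Col4a3 was at 10.8 to 18.0 in HFHC controls and 6.06 to 13.2 after treatment, and at 14.8 to 23.9 in CDAHFD controls and 21.1 to 51.0 after treatment, and did not pass on either diet. Opposite the Col4a3 gene, C430014B12Rik covers 5.65% of its exonic bases. Across the 6 type IV genes the median log2 fold change was -0.47 on HFHC and 0.57 on CDAHFD. The CDAHFD median is set by the 4 low chains, which were positive, while the abundant Col4a1 and Col4a2 were at -0.63 and -0.19. Summed over the 6 genes, CDAHFD levels were 2750 to 3307 in controls and 1744 to 3067 after treatment.

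**Figure D4:**
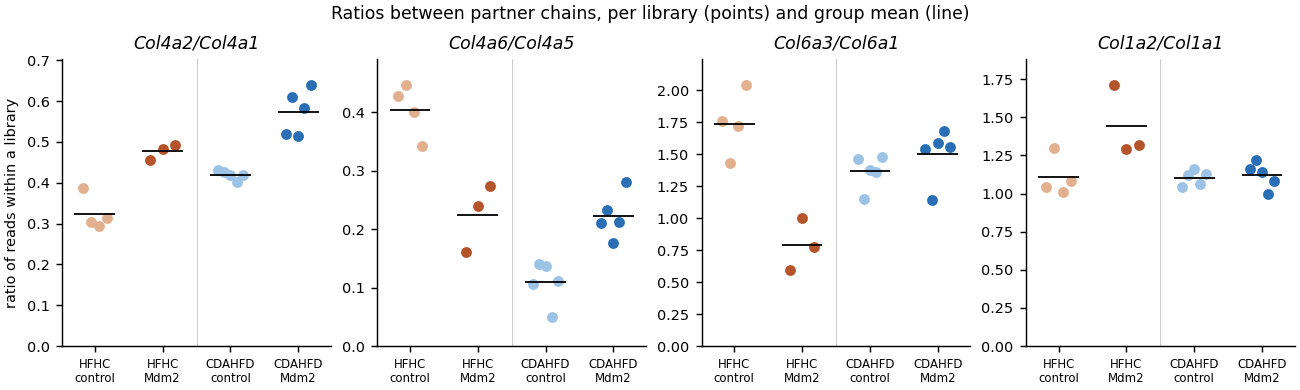
Ratio of reads of partner chains in each library (points) and group mean (line) for 4 chain pairs. The Col4a2/Col4a1 ratio is higher in every treated library on both diets, and the Col4a6/Col4a5 ratio is lower on HFHC and higher on CDAHFD.

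Of the basement membrane zone collagens, Col15a1, known from portal fibroblasts and capillaries, fell on HFHC. It was at 335, 129, 187 and 249 in controls and 71.3, 125 and 134 after treatment (0.502-fold; log2 -0.99 ± 0.32; limma adjusted p = 0.0433), with control 2 at 129 inside the treated range. The call was lost without treated library 6-7 or 9, without control 1, 4 or 5 and with total-count scaling, with a limma adjusted p of up to 0.135. On CDAHFD Col15a1 was at 112 to 171 in controls and 84.8 to 141 after treatment and did not pass. Col7a1, which forms anchoring fibrils under epithelia, rose on CDAHFD. It was at 19.3, 18.5, 34.9, 26.6 and 16.8 in controls and at 48.2, 74.3, 94.1, 28.7 and 39.6 after treatment (2.30-fold; log2 1.20 ± 0.34; limma adjusted p = 0.0302). Treated library 9 lay below control 3, and the call was lost without treated library 7 or 8, without control 1, 2 or 5 and with quantile normalization. On HFHC Col7a1 was at 11.2 to 20.6 in controls and 20.2 to 31.2 after treatment (log2 0.70 ± 0.30; limma adjusted p = 0.105). Col18a1 did not pass on either diet, although on HFHC all treated libraries, at 14874, 15348 and 17242, lay below the controls at 17401, 21325, 18482 and 17846. Its log2 fold change was -0.24 ± 0.12 there (limma adjusted p = 0.144) and -0.20 ± 0.12 on CDAHFD (limma adjusted p = 0.324).

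Of type VI collagen, which surrounds cells with fine filaments, the 3 abundant chains did not pass on either diet. Col6a1 had means of 488 ± 186 in HFHC controls (SD, n = 4) and 613 ± 31.0 after treatment (SD, n = 3), Col6a2 had 315 ± 138 and 350 ± 37.0, and Col6a3 had 866 ± 385 and 488 ± 148. Col6a3 thus had the opposite sign of its partners: log2 fold changes were 0.41 ± 0.25, 0.25 ± 0.29 and -0.74 ± 0.35. The ratio of Col6a3 to Col6a1 reads was 1.76, 1.43, 1.72 and 2.04 in HFHC controls and 0.599, 0.999 and 0.772 after treatment, with no overlap (exact permutation p = 0.0571, 0.152 adjusted over the 16 ratios). On CDAHFD this ratio was 1.15 to 1.48 in controls and 1.14 to 1.68 after treatment. Col6a5, a rare alternative to Col6a3, fell on HFHC. It was at 23.7, 15.7, 36.7 and 24.0 in controls and at 11.1, 1.89 and 2.02 after treatment (log2 -2.57 ± 0.58; limma adjusted p = 0.00844), which rests on 95 control reads and 16 treated reads. The read ratio was 0.204 with an exact 95% counting interval of 0.112 to 0.349. On CDAHFD Col6a5 ranged from 0 to 25.2 in controls and from 0 to 15.8 after treatment.

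Among the FACIT collagens, Col12a1 and Col14a1, which both bind the surface of type I fibrils, went in opposite directions on HFHC. Col12a1 was at 145, 130, 159 and 159 in controls and at 52.8, 65.3 and 90.9 after treatment (0.462-fold; log2 -1.11 ± 0.19; limma adjusted p = 0.00198). For CDAHFD the values were 142, 141, 205, 154 and 210 in controls and 111, 112, 73.7, 121 and 89.4 after treatment (0.597-fold; log2 -0.74 ± 0.18; limma adjusted p = 0.0164). No treated library of either diet reached its controls, and both calls stood under every alternative. Col14a1 was at 1407, 1269, 972 and 1263 in HFHC controls and at 2217, 2441 and 2468 after treatment (1.95-fold; log2 0.96 ± 0.12; limma adjusted p = 2.6e-04). On CDAHFD it was at 1320, 1703, 1470, 1506 and 1310 in controls and at 1169, 1263, 1185, 1666 and 1799 after treatment, which overlapped (log2 -0.06 ± 0.13; limma adjusted p = 0.79). Decorin (Dcn), the small proteoglycan through which type XIV binds fibrils, rose on HFHC as well, from 3875 ± 818 to 6010 ± 585 (limma adjusted p = 0.0118).

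The other tested FACIT genes Col9a2, Col9a3, Col16a1, Col20a1 and Col22a1 did not pass with limma on either diet. On CDAHFD DESeq2 called Col20a1 and Col9a3 higher, with DESeq2 adjusted p of 0.0222 and 0.0406, and edgeR called neither. Col9a3 and Col22a1 were apart between groups on CDAHFD. Col9a3, a cartilage chain, was at 8.06 to 32.2 in controls and 33.5 to 46.9 after treatment (limma adjusted p = 0.0829), and 6.07% of its exonic bases lie opposite Tcfl5. Col22a1, known from tissue junctions, was at 1.85 to 5.36 and 6.28 to 14.4 (limma adjusted p = 0.0591). Over all tested collagens, 11 of 36 had groups that did not overlap on HFHC, where 38.7% of all genes did so, and 6 of 36 on CDAHFD, where 10.6% did.

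Type VIII collagen forms hexagonal sheets and is known from vessel walls and the eye. Col8a1 was at 33.0, 31.4, 25.9 and 39.0 in HFHC controls and at 8.33, 18.9 and 14.1 after treatment (0.418-fold; log2 -1.26 ± 0.32; limma adjusted p = 0.0148), without overlap. Its CDAHFD values were 11.0 to 32.4 in controls and 3.40 to 19.1 after treatment, and the gene did not pass (log2 -1.01 ± 0.47; limma adjusted p = 0.172). Col8a2 was at 10.3, 5.61, 6.47 and 2.00 in HFHC controls and 1.85, 1.89 and 2.02 after treatment, and at 2.15, 5.55, 11.0, 4.03 and 5.61 in CDAHFD controls and 14.7, 7.33, 15.9, 7.66 and 21.5 after treatment. It did not pass on either diet, with log2 fold changes of -1.27 ± 0.55 and 1.22 ± 0.47. These Col8a2 values rest on 23 control and 6 treated reads on HFHC, and on 31 and 62 on CDAHFD.

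The transmembrane collagens were rare. Col25a1, known from neurons and developing muscle, was at 1.03, 2.25, 1.08 and 0.999 in HFHC controls and at 13.9, 13.2 and 9.09 after treatment (log2 2.80 ± 0.44; limma adjusted p = 0.00126). These were 5 control reads and 38 treated reads, a ratio of 9.21 with an exact 95% counting interval of 3.62 to 30.0. On CDAHFD the gene was at 5.61 to 10.1 in controls and 8.62 to 14.7 after treatment and did not pass. Col17a1, a hemidesmosome protein of epithelia, had 1 control read and 8 treated reads on HFHC, at 1.03, 0, 0 and 0 against 1.85, 2.84 and 3.03 normalized counts. The read ratio was 9.69 with an exact 95% interval of 1.30 to 430, and the call (limma adjusted p = 0.0297) was lost without treated library 9 or 10 or control 2, 4 or 5. DESeq2 gave this gene no adjusted p. Only 1 control held a normalized count of 1 or more, so Col17a1 was tested only because of the treated libraries. Col13a1 and Col23a1 did not pass with limma on either diet; DESeq2 called Col13a1 on CDAHFD (DESeq2 adjusted p = 0.0374) and edgeR did not.

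**Figure D5:**
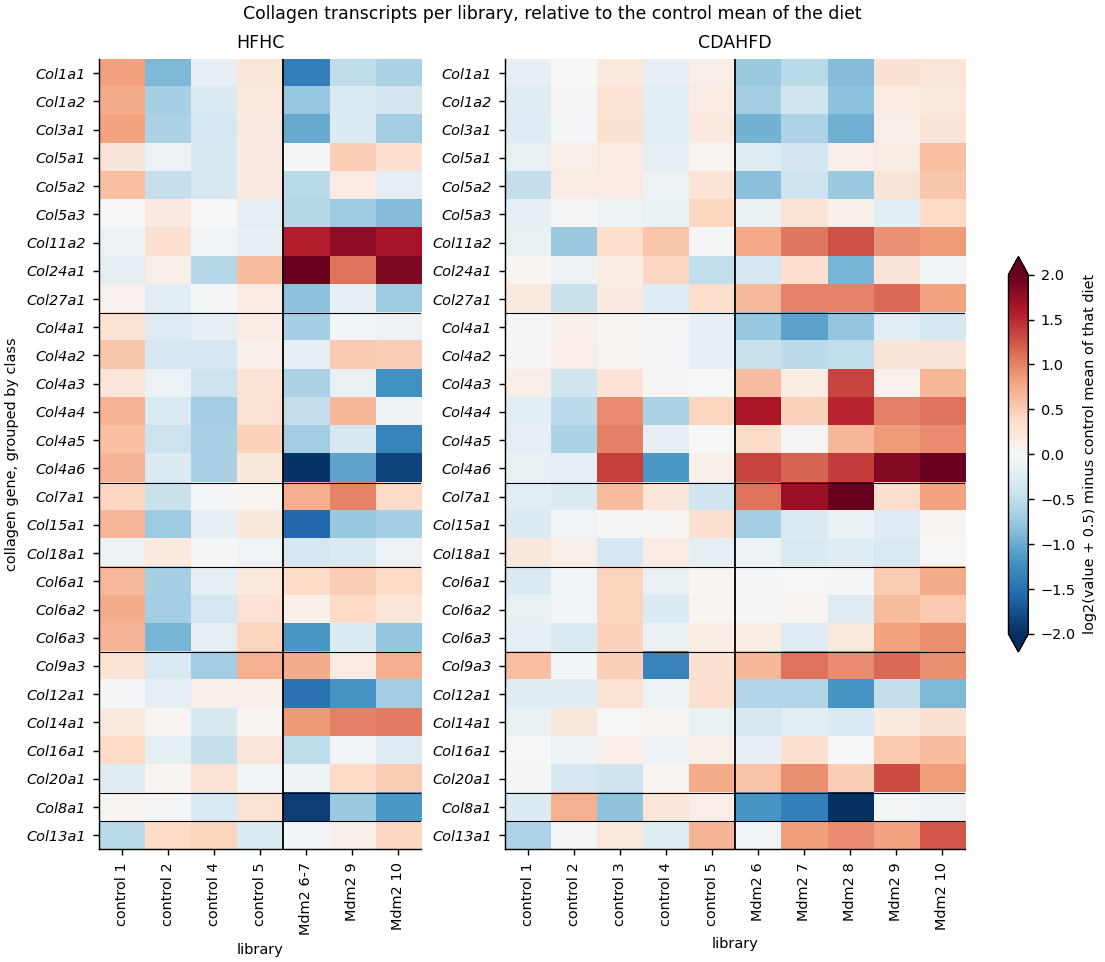
Log2(normalized count + 0.5) of 28 collagen genes with a mean of at least 10 on each diet, per library, minus the control mean of the same diet; red is higher and blue lower, with the colour range ending at 2. The type I and III chains are low in CDAHFD treated libraries 6 to 8 and not in 9 and 10, while Col4a6 is blue in the HFHC treated libraries and red in those of CDAHFD.

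Whether the effect of the Mdm2 oligonucleotide differed between diets was tested directly, as the CDAHFD effect minus the HFHC effect. Of 35 collagen genes tested, 8 passed (22.9%, against 23.5% of 16333 genes). A more positive effect on CDAHFD was found for 5 genes (background 9.83%) and a more negative one for 3 (background 13.6%). The largest was Col4a6, with a log2 difference of 3.24 ± 0.62 (limma adjusted p = 9.2e-04). Col8a2 had 2.49 ± 0.73 (limma adjusted p = 0.0184) and Col27a1 had 1.48 ± 0.24 (limma adjusted p = 1.7e-04). Both of these chains and Col4a6 had opposite signs on the 2 diets. Col4a5 followed its partner, with a difference of 1.36 ± 0.48 (limma adjusted p = 0.0459), and lost the call in edgeR, without the low-value filter, with total-count scaling and when any of 12 libraries was left out. Col6a3 did not pass with limma (adjusted p = 0.0669) but did with edgeR and DESeq2, at adjusted p of 0.0377 and 0.014, and Col4a3 passed with DESeq2 alone (adjusted p = 0.0493). Col5a3 had 0.79 ± 0.20 (limma adjusted p = 0.00652). In the other direction were Col25a1 at -2.28 ± 0.52 (limma adjusted p = 0.00336), Col24a1 at -1.79 ± 0.49 (limma adjusted p = 0.0122) and Col14a1 at -1.03 ± 0.19 (limma adjusted p = 8.1e-04). These 3 rose on HFHC and did not pass on CDAHFD. Median log2 differences were 1.17 for type IV and 0.16 for fibrillar genes, against 0.01 over all genes. The abundant type IV chains Col4a1 and Col4a2 went against their class median, at -0.35 and -0.47, and did not pass. Col1a1, Col1a2 and Col3a1 did not pass, at 0.52 ± 0.43, 0.16 ± 0.36 and 0.23 ± 0.41.

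Counts for the genes that act on collagen are read against the 30.6% of all genes called on HFHC and the 13.0% on CDAHFD. Of 20 genes for chain hydroxylation and folding in the endoplasmic reticulum, 2 were higher and 4 lower on HFHC, which is 30.0%, with a median log2 fold change of -0.01. P4ha1, a prolyl hydroxylase that stabilizes the helix, rose from 315 ± 14.6 to 498 ± 66.1 (limma adjusted p = 0.0013). Colgalt1, which adds galactose to hydroxylysine, rose from 2252 ± 145 to 2938 ± 85.6, while the collagen isomerase Fkbp14 fell from 217 ± 11.9 to 144 ± 14.0. On CDAHFD 1 of the 20 passed (5.00%), P4ha3, a further prolyl hydroxylase, which rose from 1.11 ± 1.51 to 8.26 ± 3.55 (limma adjusted p = 0.0157). The controls alone would not have carried P4ha3 past the low-value filter, and DESeq2 gave it no adjusted p.

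Of 13 tested genes for procollagen trimming and crosslinking, 1 was higher and 2 lower on HFHC (23.1%), while on CDAHFD 0 of 12 passed with limma (4 at an unadjusted p under 0.05), 0 with edgeR and 1 with DESeq2. Pxdn, the peroxidase that crosslinks type IV collagen, rose on HFHC from 227 ± 57.7 to 331 ± 38.3 (limma adjusted p = 0.0461). Adamts2 and Bmp1, the proteases that remove the ends of fibrillar procollagen, fell on HFHC, from 314 ± 79.1 to 198 ± 23.5 and from 3266 ± 321 to 2722 ± 48.8; edgeR did not call Bmp1 (edgeR adjusted p = 0.0579). Of 7 fibril-binding proteoglycans, Dcn and Prelp were higher and Fmod, which binds type I fibrils, was lower on HFHC, from 62.6 ± 16.9 to 21.8 ± 5.40, which makes 42.9% called. Of 14 basement membrane partners, 1 was higher and 3 lower on HFHC (28.6%), and 1 higher and 2 lower on CDAHFD (21.4%). Nid1, which links laminin to type IV collagen, fell on both diets, from 900 ± 140 to 631 ± 74.8 and from 824 ± 192 to 378 ± 118. Agrn, a heparan sulphate proteoglycan, fell on HFHC from 1909 ± 269 to 1377 ± 86.5 and rose on CDAHFD from 2499 ± 501 to 3543 ± 593.

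Of 12 collagen receptors, 4 were higher and 1 lower on HFHC (41.7%). Lair1, an inhibitory receptor of leukocytes, rose from 110 ± 4.92 to 574 ± 49.5 (limma adjusted p = 3.1e-07). Gp6, the collagen receptor of platelets, rose from 1.85 ± 0.523 to 24.5 ± 6.33, and Itga1, an integrin chain, from 518 ± 33.1 to 731 ± 26.7. On CDAHFD 1 of 11 was higher, Itga11, a fibroblast integrin chain, and 1 lower, Itgb1, its partner, from 3419 ± 265 to 2534 ± 151, together 18.2%. Among 10 matrix-degrading enzymes and inhibitors on HFHC, Mmp8 and Mmp9 were higher and Mmp13 and Timp1 lower (40.0%). Mmp13, a collagenase, fell from 38.5 ± 17.2 to 2.26 ± 1.16 (limma adjusted p = 4.5e-04), and Mmp9, a gelatinase, rose from 15.4 ± 2.15 to 59.5 ± 10.5. On CDAHFD 1 of 11 passed (9.09%): Mmp14, a membrane-bound collagenase, fell from 1249 ± 212 to 852 ± 262, a call made by limma and DESeq2 but not by edgeR (edgeR adjusted p = 0.0522).

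Of 16 genes of TGF-beta and PDGF signalling, which drives collagen transcription in fibroblasts, 7 were higher and 4 lower on HFHC (68.8%). Tgfb1 rose from 244 ± 34.1 to 1123 ± 103 (limma adjusted p = 1.4e-06). Ccn1, a matrix-bound signalling protein, fell on HFHC from 641 ± 127 to 149 ± 19.6 and on CDAHFD from 1770 ± 309 to 966 ± 554, and was the 1 gene of the 16 (6.25%) to pass with limma on CDAHFD. The CDAHFD call of Ccn1 was lost with edgeR and DESeq2, at adjusted p of 0.0703 and 0.0904. Tgfb1 on CDAHFD was at 405 ± 41.0 and 385 ± 111.

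Markers of several cell types differed between the same groups. Their counts on HFHC are read against the 30.6% of all genes called there, with 16.8% higher and 13.8% lower. On HFHC, 8 of 13 quiescent stellate markers were higher and none lower, and their summed level was 6125 to 7897 in controls and 11037 to 11909 after treatment. Of 11 markers of activated stellate cells or myofibroblasts, 1 was higher and 4 lower, with sums of 1732 to 2363 and 1971 to 2445; Acta2, smooth muscle actin, fell from 185 ± 141 to 47.8 ± 28.0, and Postn rose from 381 ± 76.1 to 625 ± 91.7. Of 12 portal fibroblast markers 1 was higher and 4 lower, with sums of 1655 to 2325 and 836 to 1271. Of 13 cholangiocyte (bile duct cell) markers 7 were lower and none higher, with sums of 4495 to 13083 and 2632 to 3504; edgeR called 9 and DESeq2 10 of them. Sinusoidal endothelial markers were higher for 8 of 12, with sums of 5922 to 6510 and 8060 to 9147, while 0 of 10 hepatocyte markers passed with limma or at an unadjusted p under 0.05 (0 with edgeR, 4 with DESeq2). Kupffer cell and macrophage markers, with 4 of 10 higher and 1 lower, had sums of 5197 to 9361 in controls and 13101 to 16869 after treatment. Red blood cell markers, with 6 of 6 higher, had sums of 1879 to 3395 and 6905 to 16628. The part of these cell types in the collagen differences was not tested.

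On CDAHFD fewer markers passed, and so did fewer of all genes, at 13.0%, with 6.12% higher and 6.86% lower. Of quiescent stellate markers 2 of 13 were higher (Ecm1 and Cygb), with sums of 8240 to 11281 in controls and 9979 to 14359 after treatment. Of 11 activated stellate, 12 portal fibroblast and 13 cholangiocyte markers, 0 passed with limma, edgeR or DESeq2, and 2, 0 and 5 had an unadjusted limma p under 0.05. Cholangiocyte sums were 4507 to 12684 and 7698 to 12909, and control 3, which was high in Col4a5 and Col4a6, held the highest control sum. This library was also the highest control for quiescent stellate, activated stellate, portal fibroblast, mesothelial and red blood cell markers. For smooth muscle markers it was the lowest control, at 3362 against 3367 to 4788. It was not the highest control for sinusoidal endothelial, vascular endothelial, hepatocyte or macrophage markers. Smooth muscle markers, with 2 of 7 higher (Mustn1 and Mylk), had sums of 3362 to 4788 in controls and 4808 to 5693 after treatment, which did not overlap. Sinusoidal endothelial markers, with 1 of 12 higher (Stab1), had sums of 3988 to 5384 and 5141 to 8039. Of 7 vascular endothelial markers 0 passed with limma (2 at an unadjusted p under 0.05), 0 with edgeR and 2 with DESeq2, with sums of 291 to 618 and 455 to 1084. Of 7 mesothelial markers 0 passed with limma (3 at an unadjusted p under 0.05), 1 with edgeR and 2 with DESeq2, with sums of 91.6 to 261 and 183 to 488. In the test of the difference between diets 9 of the 13 cholangiocyte markers had a more positive effect on CDAHFD, with a median log2 difference of 1.70, where 9.83% of all genes did. Portal fibroblast markers did so for 3 of 12 and smooth muscle markers for 1 of 7 (Mylk). The part of these cell types in the collagen values was not tested.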

How the data were processed

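RNA of mouse liver was sequenced from strand-specific mRNA libraries, per the labels' protocols. STAR 2.7.10b, featureCounts, Subread 2.0.3 and GRCm39 are named in the submitters' processing notes; the strand setting of the counting is not given in the sources used here. The deposited values are TMM-normalized counts, a signal the authors obtained by dividing reads by 1 factor per sample, separately for each diet. They were whole multiples of that factor in 100% of values (tolerance 0.001 reads), so whole reads were recovered for the alternative fits and for depth. No column of per-sample values was left unused (0 columns).

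The main test was limma 3.58.1 (R 4.3.3, trend) on log2(value + 0.5) per diet, with a filter of 1 in at least 3 (HFHC) or 5 (CDAHFD) libraries, Benjamini-Hochberg over all genes and a threshold of 0.05; the diets' effects were compared by an interaction term. The fitting script was tested on simulated data. Chain ratios used reads + 0.5 on a log2 scale and exact permutation tests. Counting intervals are exact at 95% and cover counting error only. Levels per kb used exonic lengths of GENCODE M21 (GRCm38), found for all 44 genes.

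Library values were printed for each collagen called by limma on either diet or in the difference and for Col1a1, Col1a2, Col3a1, Col4a1 and Col4a2; partner genes were named by smallest p, up to 3 per list and diet, and Acta2 after its values were seen; results of 2 such genes are not reported here. Members and lists were chosen with earlier results of these data known. Alternatives were edgeR 4.0.16, DESeq2 1.42.0, other pseudocounts (0.1 and 2), filters, scalings, and leaving out each library.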

Additional observations from a re-analysis of the deposited data

Results flagged for a closer look

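In 8 of 63 groups of 4 or 5 library values of the named collagen genes, the lowest or highest library stood far from the others by Dixon's test. For continuous values chance gives about 1 in 20. On CDAHFD these were control 3 for Col4a5 (187 normalized counts) and Col4a6 (25.7), control 5 for Col5a3 (2796) and Col6a5 (25.2), control 4 for Col17a1 (0.806) and treated library 6 for Col17a1 (2.09). On HFHC they were control 1 for Col17a1 (1.03) and control 2 for Col25a1 (2.25). The values of Col17a1 and Col25a1 in this list are 1 or 2 reads. In the Col17a1 groups no other library had a read, so the test had to flag the library that did. The rate of 1 in 20 does not hold for such values, and nothing is read from the count of 8.

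For 8 genes the effect of the Mdm2 oligonucleotide differed between the diets in the test of the difference (CDAHFD effect minus HFHC effect, log2). The difference was 3.24 for Col4a6, 2.49 for Col8a2, 1.48 for Col27a1, 1.36 for Col4a5 and 0.79 for Col5a3. It was -1.03 for Col14a1, -1.79 for Col24a1 and -2.28 for Col25a1.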

How the results depend on the processing

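No paired analysis was possible because the control and treated groups of a diet share no replicate number. Of 1246 alternative values of single collagen genes, 1172 kept their direction and their side of the threshold. A further 51 lost the call, 9 gained one, 12 turned sign and 2 chain ratios moved beyond the spread between libraries. All sign changes were in values that had not passed. Col4a4 on HFHC turned to -0.09 with samples 6 and 7 as 2 samples, -0.23 with quantile normalization, and -0.29, -0.07 and -0.20 without treated library 9, control 2 and control 4, in a leave-one-out range of -0.29 to 0.28. On CDAHFD Col14a1 turned to 0.00 without treated library 6 (range from -0.15), Col24a1 to 0.05 without treated library 8 (from -0.26), and Col6a5 to -0.03 without control 1 or control 2 (up to 1.39). Of the differences between diets, Col1a2 turned to -0.09 (up to 0.38) and Col3a1 to -0.04 (up to 0.44) without HFHC control 1, and Col8a1 to -0.06 (up to 0.58) without treated library 6-7. The number of collagens called higher on HFHC was 3 instead of 5 with a filter of 10, where 31 instead of 36 were tested. Col17a1 and Col25a1 did not pass that filter, so they were not tested there. On CDAHFD the number of collagens called higher was 8 instead of 5 with DESeq2, which called 1455 of all genes higher instead of 1028. For the difference it was 9 instead of 5 with quantile normalization. Leaving out 1 library gave 10 to 13 calls on HFHC (4 to 6 higher, 5 to 9 lower), 4 to 8 on CDAHFD (2 to 6 higher, 2 lower) and 7 to 10 for the difference (4 to 7 higher, 3 to 4 lower). On CDAHFD the lowest count, 4, was without control 2, and 5 were called without control 1 or 4 or treated library 8, 9 or 10. Calls over all genes were also fewest there without control 2, at 1232 of 17144, against 2181 of 16803 in the main fit. Over all genes, such fits gave 3684 to 5021 calls on HFHC, 1232 to 2283 on CDAHFD and 3084 to 4029 for the difference. The cause was not tested. Quantile normalization moved the median of all genes on HFHC from -0.01 to -0.11; all genes were then called 2482 higher and 3725 lower instead of 2932 and 2399, and with total-count scaling 3382 and 1460. The collagens were called 5 higher and 10 lower with quantile normalization and 5 and 5 with total-count scaling. For the difference, all genes were called 1606 higher and 2226 lower, 2440 and 1961 with quantile normalization and 969 and 2676 with total-count scaling. The ratio differences (log2), left out library by library after the data had been seen, ranged from 0.52 to 0.65 on HFHC and 0.40 to 0.48 on CDAHFD for Col4a2/Col4a1, and from -1.0 to -0.62 and 0.80 to 1.17 for Col4a6/Col4a5. Depth limits the genes of few reads, such as Col17a1, Col25a1, Col8a2, Col6a5 and Col24a1.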
